A study of Mus musculus with 5 samples.

Results

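The ATP-binding cassette (ABC) transporters were examined in livers of mice that overexpress Fra-1 in hepatocytes. Members were all genes whose mouse symbol starts with Abca, Abcb, Abcc, Abcd, Abce, Abcf or Abcg followed by a digit, found through the accession of each array probe. The array carried 67 such probes for 49 genes, out of 55681 probes in all; Abca16 had no probe matched to it. In 43 of the 49 genes at least 1 probe stood clear of background in the Fra-1hep or the control channel on 3 or more of the 5 arrays, and these were tested among 13541 named genes and 21524 features. The other 6 genes (Abca4, Abca12, Abca13, Abca14, Abca15 and Abcb5) were at background in both channels throughout, so no change could be measured for them.

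ABC proteins use ATP to move lipids, bile salts, drug conjugates, peptides, haem precursors and vitamins across membranes. In hepatocytes, members of the B, C and G subfamilies sit in the canalicular membrane and drive bile formation, other C members return conjugates to blood, A and G members export cholesterol, and the D subfamily works in peroxisomes and lysosomes. The E and F subfamilies carry no membrane domain and act on ribosomes.

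The Fra-1hep livers came from 4 individual mice on a C57BL/6J background, plus 1 pool of Fra-1hep RNA; the control was 1 pool of liver RNA from 5 wild-type C57BL/6J mice. All mice, controls included, were fed from 4 weeks of age a diet that took 45% of its energy from fat, and were 26 to 28 weeks of age when sampled. Each mouse was set in Cy5 against the control pool in Cy3 on 1 array, and on the last array the Fra-1hep pool was in Cy3 and the control pool in Cy5. The sources used here give neither the mice that entered the Fra-1hep pool nor the promoter behind the overexpression. If that pool held the same 4 mice it adds no animals. Nothing in the labels gives the spread among control mice.

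Mouse 1 was on a slide of its own and the other 4 arrays shared a slide, so the fit without mouse 1 is also the one within a slide. Between 47.2% and 54.7% of spots were well above background in Cy5, and between 47.7% and 61.5% in Cy3. Across all features, which are not independent replicates, ratios of the mice correlated at r of 0.742 to 0.84 with each other and 0.593 to 0.61 with the swapped pool; all arrays share 1 control pool. Abundant hepatocyte markers such as Alb and Ttr were measured clear of background in each channel of all 5 arrays. Their ratio differed between the mouse arrays and the swapped one. The median of 9 hepatocyte markers lay between 0.52 and 0.63 in the 4 mice and at -0.31 in the swapped pool. The swapped array differs from the others in dye and in holding a pool, so dye and sample cannot be told apart there. The probe for Fosl1, the gene of Fra-1, was too dim to be tested and so did not check the labels.

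Changes are given as log2 of Fra-1hep over control from a limma fit with a dye term, ± moderated standard error (SE), fitted to the 4 mouse arrays and the swapped one. In that fit the swapped array weighs as much as all mice together, and a member passed where its p-value, adjusted by Benjamini-Hochberg over all features, was under 0.05. These p-values leave out the spread among control mice. They also leave out any error of the swapped array, which the dye term lets the fit match exactly. The SE therefore rests on the scatter among the mouse arrays, moderated over all features. Where the mice and the swapped array differ, the gap enters the dye term and does not widen the SE. In bulk liver, fewer cells of a type and less RNA per cell cannot be told apart.

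Among 43 tested members there were 12 falls and 9 rises, and 22 members did not pass. Of all named genes 30.6% passed, 18.5% lower and 12.0% higher (26.6% over all features); for the ABC members the shares were 48.8%, 27.9% and 20.9%. The median over members was -0.04, against -0.02 over named genes. Large changes were few: Abcd2 alone passed with at least a 2-fold change, a size reached by 2.25% of named genes. The same sign on all 5 arrays was seen in 25 of 43 members (39.8% of named genes) and in 20 of the 21 members that passed, the exception being Abcc9. Passing and sign rest on the same 5 values, so neither is a check on the other. The rises were small, at most 0.31 apart from that of Abcd4, and median centring in place of loess gave 1 rise and 12 falls. Without mouse 3 there were 1 rise and 12 falls, and without mouse 4 there were 1 and 11. With a spread of 5 control mice added there were 1 and 9. In each of these settings the rise was that of Abcd4. That spread was assumed and not measured: each control mouse was taken to vary as much as the arrays did around the fit. Wherever the spread of control mice is added below, it is this assumed one. Abcd2, Abcg3 and Abcg4 passed the filter on dim probes only through the control channel, so they could appear only as lower or unchanged.

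**Figure D1:**
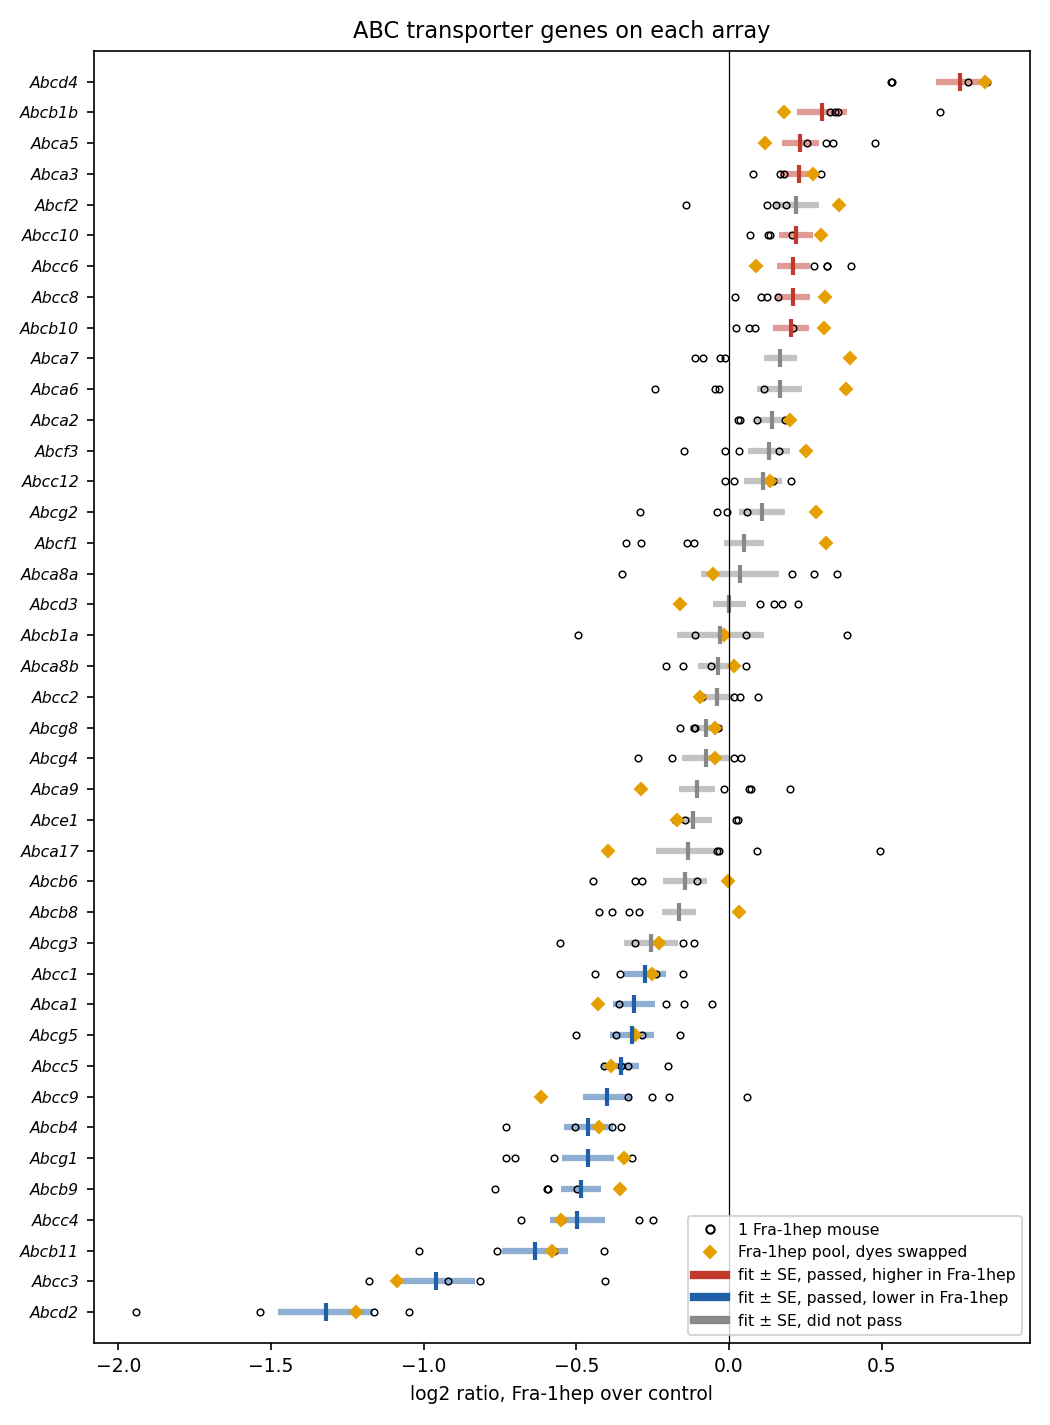
Log2 ratio of Fra-1hep over control (x axis) for tested ABC genes (rows, ordered by the fitted value). Open circles are the 4 Fra-1hep mice, diamonds the Fra-1hep pool with dyes swapped, vertical marks and bars the fitted value ± SE, coloured by whether the gene passed. Abcd4 lies at 0.76 at the top, and Abcd2 (-1.32, with the Fra-1hep signal at background), Abcc3 (-0.96) and Abcb11 (-0.63) at the bottom.

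The canalicular transporters that build bile were lower or near 0, with 1 small rise. Of 8 members, 3 fell, 1 rose and 4 did not pass, with a median of -0.06. The shares over all named genes were 18.5% lower and 12.0% higher, and the group was not tested against them. Abcb11, the bile salt export pump, had log2 ratios of -1.01, -0.41, -0.57 and -0.76 in the mice numbered 1 to 4, and the swapped pool had -0.58. It was lower on every array, least in mouse 2, and fell by 0.63 (SE 0.11, 1.55-fold, adjusted p = 0.00685). Abcb4, the floppase that delivers phosphatidylcholine to bile, had ratios of -0.35, -0.38, -0.73 and -0.51 in the mice and -0.43 in the pool, and fell by 0.46 (SE 0.08, 1.38-fold, adjusted p = 0.0075). All 5 arrays again lay below 0.

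Abcg5 and Abcg8 together form the sterol exporter of the canaliculus. Abcg5 had ratios of -0.50, -0.37, -0.16 and -0.28 in the mice and -0.31 in the pool, and fell by 0.32 (SE 0.07, adjusted p = 0.0196; adjusted p over 0.05 with the spread of control mice added). Abcg8, at ratios of -0.11, -0.16, -0.11, -0.04 and -0.04 in the same order, was also below 0 on every array but did not pass (-0.08 ± 0.05, adjusted p = 0.343). The difference between both subunits was not tested.

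The remaining canalicular members export conjugates and drugs. Abcc2, the pump for conjugated bilirubin, did not pass: its ratios were -0.09, 0.02, 0.09 and 0.04 in the mice and -0.10 in the pool, on both sides of 0 (-0.04 ± 0.06, adjusted p = 0.647). Abcg2, the breast cancer resistance protein, had ratios of -0.01, -0.04, -0.29 and 0.06 in the mice and 0.28 in the pool (0.11 ± 0.08, adjusted p = 0.334). The mean of the mice and the pool were opposite in sign, while mouse 4 lay on the pool's side of 0.

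The P-glycoprotein genes Abcb1a and Abcb1b encode closely related drug pumps. Whether a probe reads both was not tested, so their single values are uncertain. Abcb1b had ratios of 0.69, 0.35, 0.33 and 0.36 in the mice and 0.18 in the pool, above 0 on every array and highest in mouse 1. It rose by 0.31 ± 0.08 (adjusted p = 0.0326), a call that ended without mouse 3 or mouse 4 and under median centring. Abcb1a had the widest scatter among members clear of background in both channels, with ratios of -0.11, 0.06, 0.39 and -0.49 in the mice and -0.02 in the pool, so that mice 3 and 4 lay on opposite sides of 0 (-0.03 ± 0.14, adjusted p = 0.905). Abcb1a, Abcb1b and Abcb4 are all on chromosome 5, and among the 3, 1 rose, 1 fell and 1 did not pass.

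Promoter sequence was set beside these genes because several of them are textbook targets of known factors: Abcb11 of the bile acid receptor FXR, and Abcc2 and Abcc4 of NRF2. The windows shown are the 250 bases before the RefSeq start (GRCm38.p6), 5′ to 3′ on the gene's strand, with motif matches in capitals. The last line gives the 109 bases that lie between the starts of Abcg5 and Abcg8, which point away from each other, on the strand of Abcg8; the table also holds another Abcg8 start, 6709 bases from that of Abcg5, whose window is not shown.
Abcb11 promoter (chr2:69342617-69342866, minus strand): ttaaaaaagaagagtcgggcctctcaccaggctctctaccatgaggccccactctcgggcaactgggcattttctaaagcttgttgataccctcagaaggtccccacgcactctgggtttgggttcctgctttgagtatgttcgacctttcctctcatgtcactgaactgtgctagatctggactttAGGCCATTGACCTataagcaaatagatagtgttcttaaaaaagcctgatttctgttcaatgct
Abcc2 promoter (chr19:43782058-43782307, plus strand): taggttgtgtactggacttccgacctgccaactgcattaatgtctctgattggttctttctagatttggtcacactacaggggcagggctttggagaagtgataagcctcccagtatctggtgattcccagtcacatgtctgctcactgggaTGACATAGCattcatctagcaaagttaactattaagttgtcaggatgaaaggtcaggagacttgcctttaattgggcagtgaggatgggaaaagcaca
Abcc4 promoter (chr14:118706220-118706469, minus strand): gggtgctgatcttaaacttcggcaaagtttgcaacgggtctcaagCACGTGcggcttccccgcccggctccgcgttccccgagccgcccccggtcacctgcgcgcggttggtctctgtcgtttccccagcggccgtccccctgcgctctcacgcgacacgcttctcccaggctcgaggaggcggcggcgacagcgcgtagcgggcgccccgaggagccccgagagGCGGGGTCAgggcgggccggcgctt
Abcg5 and Abcg8 between their starts (chr17:84683012-84683120, plus strand): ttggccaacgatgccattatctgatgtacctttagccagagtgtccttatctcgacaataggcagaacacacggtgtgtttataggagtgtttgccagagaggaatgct

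In the table used, 37 of the 49 genes had a window, 44 windows in all; members that passed and had none included Abcc1, Abcc3, Abcc6, Abcc8, Abcd2, Abcd4 and Abcg1. Both strands were searched. The capitals in Abcb11 mark AGGNCANTGNCCT, an inverted repeat of the FXR kind with 1 open base on each side, at -63 to -51; letters in this form were chosen after the window was read, and 0.0852% of 32851 windows of all genes hold it. The capitals in Abcc2 (-98 to -90) and the second ones in Abcc4 (-25 to -17) mark TGACNNNGC, the core of the antioxidant response element, held by 10.2% of all windows and by 4 of the 44 ABC windows (those of Abcc2 and Abcc10, and 2 of Abcc4). The first capitals in Abcc4 mark the E-box CACGTG, held by 6.02% of all windows and 5 ABC windows. The AP-1 heptamer TGANTCA, the letters bound by Fra-1 dimers, was in 0 of the 44 ABC windows and in 6.75% of all; it can overlap the antioxidant core. The octamer TGACGTCA stood in 2 ABC windows, of Abce1 and Abcg2, and in 1.55% of all. The exact repeats AGGTCANTGACCT (0.00609% of all windows) and AGGTCANAGGTCA (0.0335%) were in 0 ABC windows. A match is a description of letters, and absence from a window of this length says nothing about a factor.

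Efflux pumps of membranes other than the canalicular one changed in both directions, with the larger changes downward. Which liver cells their RNA came from was not tested. Of 7 members of the C subfamily that export conjugates or nucleotides, 4 fell, 2 rose and 1, Abcc12 (0.11), did not pass. The median was -0.27. Over all named genes 18.5% passed as lower and 12.0% as higher, and the group was not tested against these shares. Abcc3 (MRP3), which returns glucuronide conjugates to blood, had ratios of -0.92, -0.41, -0.82 and -1.18 in the mice and -1.09 in the pool. Every array was below 0, with mouse 2 nearest to it, and Abcc3 fell by 0.96 (SE 0.13, 1.94-fold, adjusted p = 0.00275). Its normalized level averaged 12.9 log2 units in the Fra-1hep channel and 13.8 in the control channel.

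Abcc4 (MRP4), a basolateral pump for cyclic nucleotides and bile acids, had ratios of -0.55, -0.29, -0.25 and -0.68 in the mice and -0.55 in the pool, and fell by 0.50 (SE 0.09, 1.41-fold, adjusted p = 0.00901). It was below 0 on all 5 arrays, and the scanner software's processed signals gave -0.86. Abcc5 (MRP5), a cyclic nucleotide pump, had ratios of -0.33, -0.20, -0.35 and -0.41 in the mice and -0.39 in the pool, and fell by 0.35 (SE 0.06, adjusted p = 0.00687). Its other 2 kept probes gave -0.14 and -0.09 and did not pass, and the mean of all its probes was -0.19 (adjusted p = 0.0299).

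Abcc1 (MRP1), the leukotriene C4 exporter, fell by 0.27 (SE 0.07, adjusted p = 0.0268); its call ended without mouse 4 and with the spread of control mice added, and processed signals gave -0.63. The rises were those of Abcc6 and Abcc10. Abcc6, which hepatocytes need to release ATP and which is lost in pseudoxanthoma elasticum, had ratios of 0.32, 0.32, 0.28 and 0.40 in the mice and 0.09 in the pool, and rose by 0.21 ± 0.05 (adjusted p = 0.0288). Its second probe, at 0.03, did not pass, nor did the mean of both (0.12, adjusted p = 0.136). Abcc10 rose by 0.22 ± 0.05 (adjusted p = 0.0266), and by 0.13 without the swapped array (adjusted p = 0.0709, no longer passing).

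Among sterol and phospholipid exporters, Abcg1 and Abca1 fell. Of 6 members, 2 fell, 1 rose and 3 did not pass, with a median of 0.03 (all named genes: 18.5% lower, 12.0% higher, not tested against). Abcg1, which loads cholesterol onto high-density lipoprotein, had ratios of -0.73, -0.32, -0.57 and -0.70 in the mice and -0.34 in the pool, and fell by 0.46 (SE 0.09, 1.38-fold, adjusted p = 0.00936). Abca1, which lipidates apolipoprotein A-I, had ratios of -0.05, -0.36, -0.15 and -0.21 in the mice and -0.43 in the pool. It was below 0 on all 5 arrays but close to 0 in mouse 1, and fell by 0.31 (SE 0.07, adjusted p = 0.0176). Its value was -0.19 without the swapped array (adjusted p = 0.048), and its call ended with processed signals and with the spread of control mice added. Abca3, the lipid transporter of lamellar bodies, rose by 0.23 ± 0.06 (adjusted p = 0.0325; not passing without mouse 3 or 4, with processed signals or under median centring). Abca2 (0.14), Abca7 (0.17) and Abcg4 (-0.08) did not pass, and Abca7 lay below 0 in all 4 mice and at 0.40 in the swapped pool.

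Abca1 and Abcg1 are also expressed by macrophages. Of 9 macrophage and Kupffer cell markers tested, 4 fell, 0 rose and 5 did not pass, with a median of -0.78, and their summed signal ran from 20600 to 39100 intensity units in the Fra-1hep channel over the 5 arrays, against 37000 to 43500 in the control channel. Itgax (-1.28 ± 0.11), Cd74 (-0.99 ± 0.09), Trem2 (-0.86 ± 0.06) and Adgre1 (-0.82 ± 0.14) fell. The Kupffer cell markers Clec4f (0.07 ± 0.16), Vsig4 (0.05 ± 0.19) and Timd4 (0.13 ± 0.18), named with their values known, did not pass. Each of them lay on both sides of 0 over the 4 mice. Marco (-0.78 ± 0.38) and Csf1r (-0.54 ± 0.17), of the same list, did not pass either. Stellate cell and fibroblast markers fell in 8 of 10 cases (0 rose, median -0.82), with sums of 17900 to 23700 in Fra-1hep and 37800 to 47800 in control. Endothelial markers fell in 5 of 10 (0 rose, median -0.37), with sums of 17300 to 24000 in Fra-1hep and 25700 to 27800 in control. Of 9 neutrophil markers 7 rose and 0 fell (median 2.17, sums of 45300 to 81000 in Fra-1hep and 27800 to 33900 in control). Among the 7, Mmp8 passed the filter on dim probes only through the Fra-1hep channel, so it could appear only as higher or unchanged. All markers tested in the first 3 lists were well above background in both channels. Their part in the ABC changes was not tested. Among all named genes 18.5% passed as lower and 12.0% as higher. Over smaller sets, erythroid markers had 3 of 6 lower and 0 higher, and lymphoid markers 3 of 8 lower and 0 higher. Cd8a, among the 8, passed the filter on dim probes only through the control channel, so it could appear only as lower or unchanged. Cholangiocyte markers had 1 of 8 lower and 1 higher, and hepatocyte markers 1 of 9 higher and 0 lower.

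The 5 members of the A6-like cluster on chromosome 11 differed little between the genotypes. Abca5 had ratios of 0.48, 0.25, 0.34 and 0.32 in the mice and 0.12 in the pool and rose by 0.23 ± 0.06 (adjusted p = 0.0314), while its second probe at 0.06 did not pass, nor did the mean of both (0.15, adjusted p = 0.0914). Abca6 (0.17), Abca8a (0.03), Abca8b (-0.04) and Abca9 (-0.10) did not pass. Abca8a ranged from -0.35 to 0.35 over the 4 mice. Abca17, the only other A member tested, lay at -0.13 and did not pass.

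The D subfamily held the highest value and the lowest fitted value of the superfamily, the second one only as a bound. Abcd2, a peroxisomal importer of very long-chain acyl-CoA, had ratios of -1.94, -1.53, -1.05 and -1.16 in the mice and -1.22 in the pool. The Fra-1hep signal never stood clear of background, while the control signal did so on all 5 arrays. The measured means were 6.11 log2 units in Fra-1hep and 7.49 in control, and Abcd2 was at least 2.32-fold lower in Fra-1hep livers (fitted value -1.32 ± 0.16, adjusted p = 0.00172). That bound sets the control mean against the dimmest signal clear of background on each array, or against the Abcd2 signal itself where that was higher, in channels normalized by loess and Aquantile; it is open to dye bias, as only 1 array was swapped. With the scanner software's processed signals the fitted value was -3.95, which is no bound.

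Abcd4, which exports the vitamin cobalamin from lysosomes, was the member with the highest rise. Its ratios were 0.53, 0.53, 0.78 and 0.85 in the mice and 0.84 in the pool, all far from 0, and it rose by 0.76 ± 0.08 (1.69-fold, adjusted p = 0.00104). The levels averaged 10.4 log2 units in Fra-1hep and 9.73 in control. Abcd4, Abcd2 and Abcc3 kept their call under every alternative in which they could be fitted.

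Another peroxisomal transporter, Abcd3, an importer of branched-chain acyl-CoA and bile acid precursors, had ratios of 0.15, 0.23, 0.10 and 0.17 in the mice and -0.16 in the pool, so its fitted value was 0.00 ± 0.05 (adjusted p = 0.992), which did not pass. Without the swapped array, Abcd3 (0.16) passed.

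Abcb9, which carries peptides into lysosomes, had ratios of -0.77, -0.60, -0.59 and -0.50 in the mice and -0.36 in the pool. All 5 lay below 0, and it fell by 0.49 (SE 0.07, adjusted p = 0.00285). The lysosomal members Abcd4 and Abcb9 lay on opposite sides of 0 on every array.

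Of the mitochondrial transporters, Abcb10, of the inner membrane, rose by 0.20 ± 0.06 (adjusted p = 0.042) and was at 0.10 without the swapped array (adjusted p = 0.198). Abcb8 had ratios of -0.29, -0.38, -0.43 and -0.33 in the mice and 0.03 in the pool (-0.16 ± 0.06, adjusted p = 0.0687), and its second probe lay at 0.06. Abcb6, the porphyrin transporter, lay at -0.14 ± 0.07 (adjusted p = 0.186). Without the swapped array, Abcb8 (-0.36) and Abcb6 (-0.28) passed.

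The sulfonylurea receptors, regulatory subunits of ATP-sensitive potassium channels, changed in opposite directions. Abcc9 (SUR2) had ratios of 0.06, -0.25, -0.33 and -0.20 in the mice and -0.62 in the pool, and fell by 0.40 (SE 0.08, adjusted p = 0.0125). Mouse 1 lay above 0, and without the swapped array the value was -0.18 and did not pass (adjusted p = 0.0916). Abcc8 (SUR1) rose by 0.21 ± 0.06 (adjusted p = 0.0318), and its value without the swapped array was 0.10 (adjusted p = 0.151). Of the channel pores, Kcnj8 lay at 0.20 ± 0.10 and did not pass, and Kcnj11 was too dim to be tested.

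The soluble members did not pass. Abce1, which splits ribosomes after termination, had ratios of 0.03, -0.18, -0.14 and 0.02 in the mice and -0.17 in the pool (-0.12 ± 0.06, adjusted p = 0.216). Abcf1 (0.05), Abcf2 (0.22, adjusted p = 0.0695) and Abcf3 (0.13) act in translation. Abcf1 lay between -0.34 and -0.11 in the mice and at 0.32 in the pool, and passed in the opposite direction without the swapped array (-0.22, adjusted p = 0.0249). Abcg3, a member of the G subfamily and not a soluble one, lay at -0.25 ± 0.09 (adjusted p = 0.0756). Its Fra-1hep signal stood clear of background on 1 array and its control signal on 5.

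By subfamily, C and B had the highest shares of members that passed, and the E and F subfamilies had 0 members past the threshold. Among all named genes 30.6% passed, 18.5% lower and 12.0% higher. In the C subfamily 5 of 10 fell and 3 rose, in B 3 of 9 fell and 3 rose, in D 1 of 4 fell and 1 rose, in A 1 of 10 fell and 2 rose, and in G 2 of 6 fell and 0 rose. The medians were -0.17 in G, -0.16 in C, -0.14 in B, 0.08 in D, 0.09 in A and 0.13 in F (3 genes), and Abce1 alone stood at -0.12. The G median lay between -0.34 and -0.14 on the 5 arrays, but 2 of its 6 members, Abcg3 and Abcg4, passed the filter only through the control channel; over the 4 members clear of background in both channels it was -0.20. The B median lay between -0.33 and 0.00 on the arrays. The C median lay between -0.17 and -0.01 and the A median between -0.04 and 0.14. The spread within each of these subfamilies was wider than the distance between their medians, and no test of subfamilies was made. The D median was 0.08 in mouse 1 and up to 0.24 in mouse 2, and -0.01 in the swapped pool; it includes Abcd2, and was 0.16 over the 3 members clear of background in both channels.

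**Figure D2:**
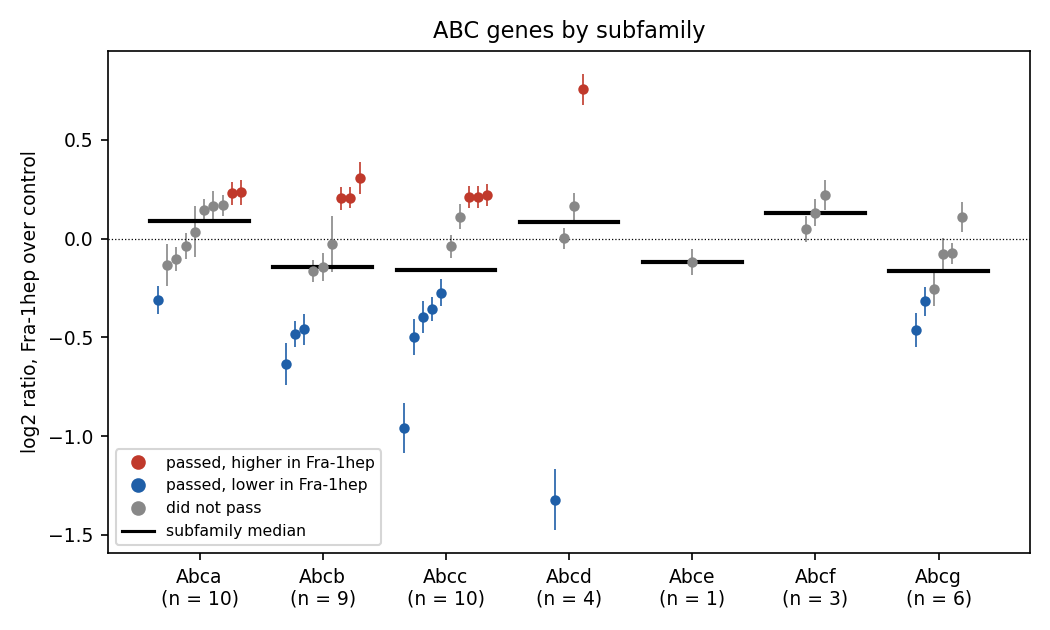
Fitted log2 ratio of Fra-1hep over control ± SE (y axis) for each tested gene, grouped by ABC subfamily (x axis, with the number of genes), coloured by whether it passed; black bars are subfamily medians. The A, B, C, D and G subfamilies hold genes on both sides of 0. The D subfamily holds both the highest value (0.76) and the lowest fitted one (-1.32, Abcd2). The Fra-1hep signal of Abcd2 was at background, so that only a bound of 2.32-fold lower is measured.

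Members differed in how well both dye orientations matched. Over the 43 members the mean of the 4 mice and the swapped pool correlated at r of 0.797. That r includes Abcd2, whose Fra-1hep signal was at background, and the points share the control pool. In 11 members the pool had the opposite sign to the mean of the mice, and 0 of these had passed. The fitted value lies midway between the pool and the mean of the mice, so opposite signs draw it toward 0. In 29 members all 4 mice had the same sign. The standard deviation over the 4 mice ran from 0.05 (Abca7) to 0.37 (Abcb1a), with a median of 0.13, against 0.12 over named genes. That range leaves out Abcd2, whose value of 0.40 rests on a Fra-1hep signal at background and is no measured spread.

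**Figure D3:**
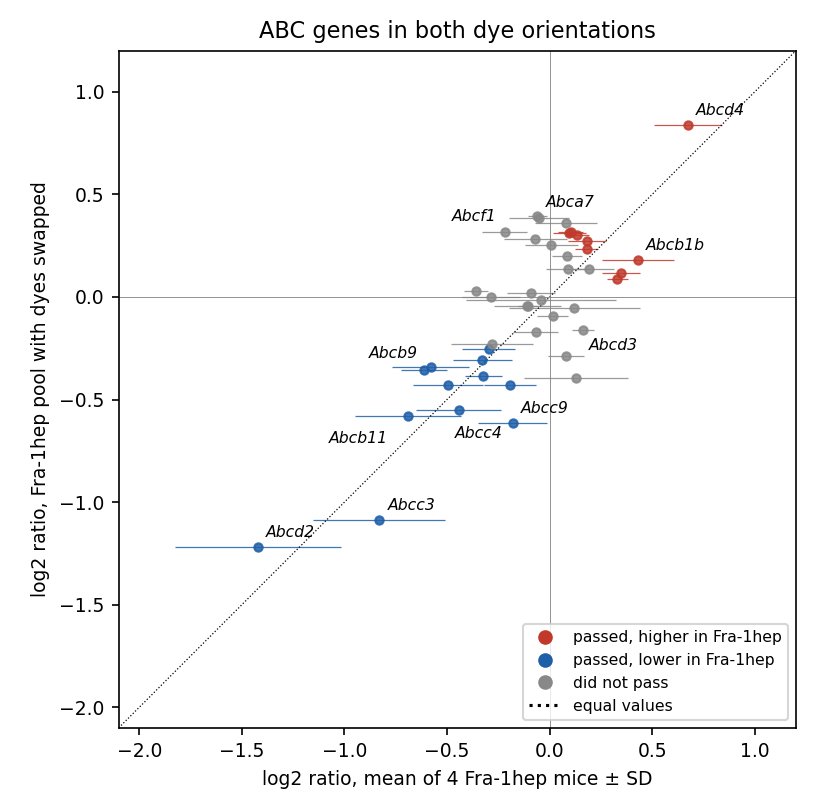
Log2 ratio of Fra-1hep over control in the Fra-1hep pool with dyes swapped (y axis) against the mean ± SD of the 4 Fra-1hep mice (x axis) for the 43 tested ABC genes; the dotted line marks equal values. Abcd2, Abcc3 and Abcd4 lie far from 0 in both orientations, and Abcf1, Abca7 and Abcd3 have opposite signs.

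Genes that work with ABC transporters changed to differing degrees. For comparison with the list counts below, 18.5% of all named genes fell and 12.0% rose. No list was tested against these shares. Of 17 nuclear receptors and other factors known to control ABC genes, 3 fell, 1 rose and 13 did not pass. Pparg, the receptor of fat storage, fell by 1.82 (SE 0.05, adjusted p = 8.38e-06), Nfe2l2, which encodes NRF2, by 0.27 (SE 0.06, with 0.03 in the swapped pool), and Nr1i2, the xenobiotic receptor PXR, by 0.31 (SE 0.09). Srebf2 rose by 0.37 ± 0.05. Outside the rule for naming genes and with values known, Nr1h4, which encodes FXR (0.05), and the LXR genes Nr1h3 (-0.11) and Nr1h2 (-0.09) did not pass.

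Carriers of the basolateral membrane, which take bile salts and organic ions up from blood or return them, showed 5 falls and 3 rises among 10 genes, while 2 did not pass, with a median of -0.29. Slco1a4 fell by 2.07 (SE 0.10) and Slco1b2 by 0.49 (SE 0.07), and the prostaglandin carrier Slco2a1 rose by 0.73 ± 0.07. Slc10a1, the sodium-dependent bile salt carrier, chosen after its value was seen, lay between 0.66 and 1.02 in the mice and at -1.16 in the pool, and did not pass (-0.18). Of 13 canalicular membrane partners 3 fell, 4 rose and 6 did not pass. Msn, which links membranes to actin and is abundant in endothelial and immune cells, fell by 0.94 (SE 0.13), Myo5b by 0.32 (SE 0.06), and Pctp, a phosphatidylcholine transfer protein, rose by 0.50 ± 0.09. Rdx, the radixin gene, passed as lower by 0.49 (SE 0.06), with the swapped pool at -0.999 and the mice between -0.07 and 0.10. That call rests on the swapped pool, whose error the SE leaves out.

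Of 11 cholesterol and lipoprotein partners 3 fell, 3 rose and 5 did not pass. Mylip, a target of LXR, fell by 0.69 (SE 0.09) and Pltp by 0.58 (SE 0.14), while Soat2, which esterifies cholesterol, rose by 0.38 ± 0.08. Apoe passed as higher at 0.26 ± 0.06, the mice lying between 1.06 and 1.21 and the pool at -0.58. The mice and the pool were thus opposite in sign, a gap that the SE leaves out. Of 12 peroxisomal partners of the D subfamily 5 fell, 1 rose and 6 did not pass, with a median of -0.22. Pex11a, a peroxisome division gene, fell by 1.50 (SE 0.10), Acaa1b, a thiolase, by 0.92 (SE 0.12), Pex3, a membrane assembly factor, by 0.37 (SE 0.05) and Hsd17b4, a peroxisomal beta-oxidation enzyme, by 0.31 (SE 0.05).

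**Figure D4:**
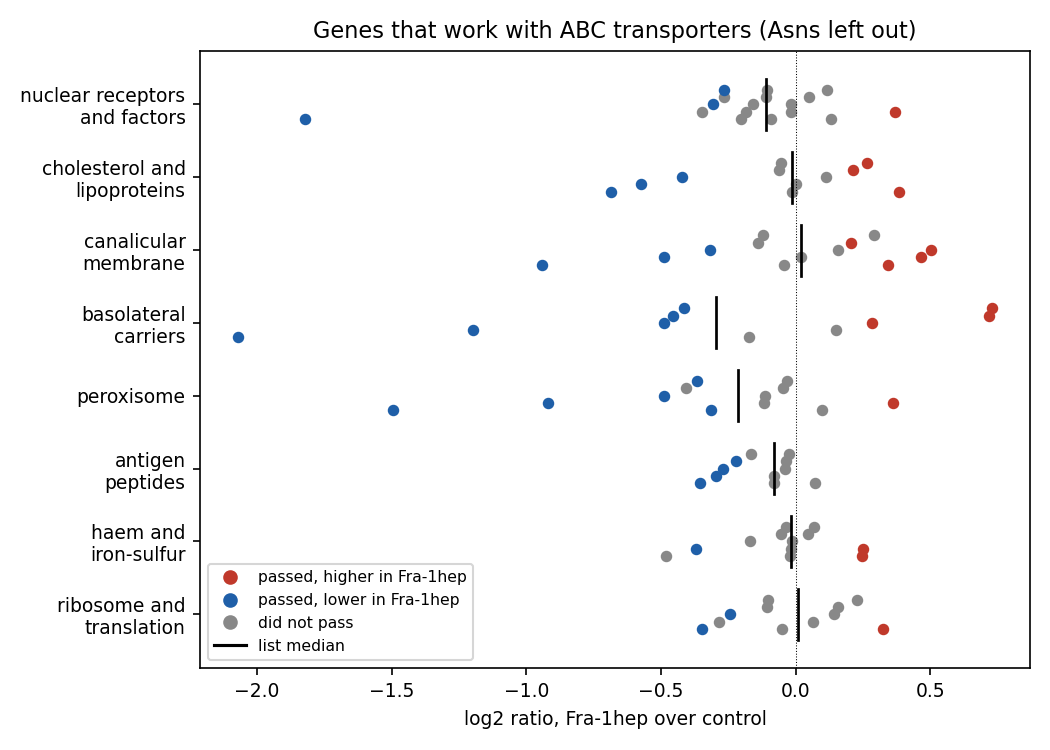
Fitted log2 ratio of Fra-1hep over control (x axis) of genes that work with ABC transporters, in 8 lists (rows), coloured by whether each gene passed; points are shifted vertically for legibility, and vertical bars are list medians. Pparg (-1.82), Slco1a4 (-2.07) and Pex11a (-1.50) lie lowest in their lists; Asns (5.87) is not drawn.

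The antigen peptide transporters Tap1 and Tap2 are ABCB proteins by structure, although their symbols do not name them so. Tap2 fell by 0.22 (SE 0.05, adjusted p = 0.0227) and Tap1 did not pass (0.07, with -0.32 to 0.02 in the mice and 0.31 in the pool). With their loading partners, 4 of 11 fell, 0 rose and 7 did not pass, among them B2m, the light chain of class I molecules, which fell by 0.35 (SE 0.06). Of 12 haem and iron-sulfur genes 1 fell, 2 rose and 9 did not pass; Glrx5, of iron-sulfur cluster assembly, rose by 0.25 ± 0.05. Of 12 ribosome recycling and stress translation genes 2 fell, 2 rose and 8 did not pass. Asns, asparagine synthetase, rose by 5.87 ± 0.24, while Pelo, a ribosome rescue factor that works with Abce1, fell by 0.35 (SE 0.10).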

How the data were processed

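Liver RNA was measured on 5 Agilent 2-colour arrays (100 ng labelled; RNA integrity score above 7.8, per the labels' protocols). The authors' scanner files give raw and processed intensity, log10 Cy5-to-Cy3 ratios and flags for each spot, made in Agilent Feature Extraction (10.7.3.1 per the file headers, 10.7 in the submitters' processing notes). A series table of log2 ratios was deposited as well; set against the scanner's ratios of 23066 probes, its slope was 1 on the mouse arrays and -1 on the swapped array, so its sign is Fra-1hep over control. Its columns were not centred (medians 0.133, 0.0842, 0.0444, 0.131 and -0.042).

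Median signals were corrected with normexp (offset 50) and normalized by loess within each array. Control spots and 177 outlier spots were left out; 0 spots were saturated. Of 55681 probes, 26056 were named by accession through RefSeq (GRCm38.p6), which also gave the promoters. Replicate spots were averaged, and each gene took its brightest probe among those kept. limma 3.58.1 (R 4.3.3) fitted genotype and dye (3 residual and 4.02 prior degrees of freedom); simulated data were used to test the fit. The array number limits precision. No ABC value was missing. Members, lists and tests were chosen with earlier results of these data known. Given with values on each array were members that passed with a change of at least 0.5, the main canalicular, sterol, conjugate and peroxisomal transporters, Abce1 and members with discordant probes; from each list, up to 4 with the smallest p. Abcb9 and other members are given beyond that rule, after their values were seen. Alternatives covered dye term, single arrays, background, normalization, filter, probe choice, weights, control pool and minimum change. Some genes counted among the totals are not reported by name here and are left out of the plot of single members.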

Additional observations from a re-analysis of the deposited data

Results flagged for a closer look

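Abcb1b stood out for 1 mouse: the ratio of 0.69 in mouse 1 was far from the next highest, 0.36, so that the gap was 0.926 of the range over the 4 mice, past Dixon's critical value for 4 samples. It was the only flag among the 43 tested members, and chance flags about 1 in 20 groups.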

How the results depend on the processing

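Among 17 alternatives, the rises (9) fell to 1 under median centring, with the assumed control spread added and against a minimum change of 1.2-fold. Their count ran from 1 to 9 when 1 mouse was left out, with 1 both without mouse 3 and without mouse 4. Fewer mice were fitted there. The falls (12) numbered 2 against the minimum change, those of Abcd2 and Abcc3, and 11 to 12 when 1 mouse was left out. Over the 21 members that passed, 275 of 356 values kept direction and call and 81 kept direction alone. Abcf1, which did not pass, had -0.22 without the swapped array. The subfamily medians moved by more than the spread between mice in these settings: B was -0.28 without the swapped array and -0.26 with array weights; C was -0.083 and -0.11 there, -0.23 with processed signals and with deposited ratios, -0.22 with offset 0 and -0.27 with both channels above background on all arrays; D was 0.18, 0.17 and, with both channels above background, 0.16. The causes were not tested. When 1 mouse was left out the medians ran from 0.06 to 0.13 in A, -0.16 to -0.12 in B, -0.18 to -0.14 in C, 0.07 to 0.10 in D, 0.10 to 0.16 in F and -0.19 to -0.14 in G. No further pairing of mice was possible, because each array set Fra-1hep RNA against the same control pool. Slide as a block equals the fit without mouse 1 (8 rises, 12 falls). Members near background, Abcd2 above all, are limited by signal over background.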
